A study of Mus musculus with 6 samples.

Results

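The genes described here encode the enzymes that make and break down polyamines, together with the proteins that hold the first of these enzymes in check. They were chosen by name: Odc1, Amd1, Amd2, Srm, Sms, Smox, Sat1, Paox, Oaz1 and Azin1. Of these 10 genes, 9 were among the 13363 genes analysed, and Srm (spermidine synthase) was not analysed here. They were measured by RNA sequencing of 6 whole gastrocnemius muscles of Balb/c mice, 3 labelled C26, from mice carrying that tumor, and 3 labelled Control. C26 is a mouse colon adenocarcinoma line that was grown under the skin of male mice of the same strain, a widely used model of cancer cachexia, the wasting of muscle and fat in cancer. The control mice received no tumor cells, and the labels name no engineered allele, drug or age for either group. All tumors came from 1 cell line, so the comparison is between mice with and without this tumor.

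Polyamines are small positively charged molecules that bind nucleic acids and are needed for growth and protein synthesis. Ornithine decarboxylase makes putrescine, S-adenosylmethionine decarboxylase provides the aminopropyl groups, and spermidine and spermine synthase use them to build spermidine and spermine. Spermine oxidase, the acetyltransferase encoded by Sat1 and the oxidase encoded by Paox run the path backwards, and in muscle several of these genes are known to respond to androgens and to disuse.

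The values are FPKM, read counts divided by transcript length and by the size of the library, so levels can be set side by side between genes. The number of reads behind them is unknown. Totals of FPKM ranged from 531061 to 585169 with tumor and from 626992 to 688300 without, and the fitted differences below were therefore taken after scaling every muscle to a common total. The muscle fiber markers summed to between 58413 and 85461 FPKM in C26 muscle and to between 95885 and 100656 FPKM in control muscle. All 8 were listed, and after scaling 1 of them (Des) was called higher and 0 lower, with a median log2 difference of -0.13. A muscle of each group stood apart. C26 replicate 3 lay nearest to the controls on the first principal component, at -31.9 against -59.6 and -65.1 for the other C26 muscles, and its myoglobin (Mb) was 4906 FPKM against 275 and 74.0 FPKM. Control replicate 3 held lymphocyte transcripts, with Cd79b at 134 FPKM against at most 0.82 FPKM in every other muscle. Values without these muscles are given where they bear on a call.

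Amd1, Amd2 and Smox were much lower in C26 muscle, by 7.66-fold, 5.21-fold and 5.87-fold, and these 3 calls held whichever muscle was left out. Oaz1 was also lower, by 2.21-fold, while Odc1, Sat1 and Paox were higher, by 1.75-fold, 2.15-fold and 2.59-fold. Sms and Azin1 did not pass the test. A gene was called when its adjusted p was under 0.05 in limma with Benjamini-Hochberg adjustment over all 13363 genes. By that rule 3 of 9 genes (33.3%) were higher, beside 19.4% of all genes, and 4 of 9 (44.4%) were lower, beside 14.5% of all genes. The 4 lower genes include Amd1 and Amd2, which share most of their sequence, so that their calls are not independent. None of the 9 was called higher when C26 replicate 1, C26 replicate 2 or control replicate 1 was left out, 1 was without control replicate 2 and 2 without control replicate 3. Over all genes the number called higher fell as well, from 2589 to 1130, 1529 and 1152 in the first 3 of these fits. It was 2004 without control replicate 2 and 2231 without control replicate 3. The balance also depended on the scaling. On FPKM as deposited 1 of the 9 was higher and 4 were lower, and over all genes 1678 were higher and 2504 lower, against 2589 and 1931 after scaling. Under quantile normalization 1 of the 9 was higher and 5 were lower, and over all genes 2242 were higher and 1574 lower. With a fold change above 4 required as well, 3 of the 9 were lower, beside 1.73% of all genes. The scaled values of the C26 muscles lay wholly below those of the controls for 5 genes, beside 26.5% of all genes, and wholly above for 3 genes, beside 27% of all genes. The median log2 difference was -0.35 over the 9 genes and -0.05 over all genes. In bulk muscle, fewer cells of a type and less RNA per cell cannot be told apart.

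**Figure D1:**
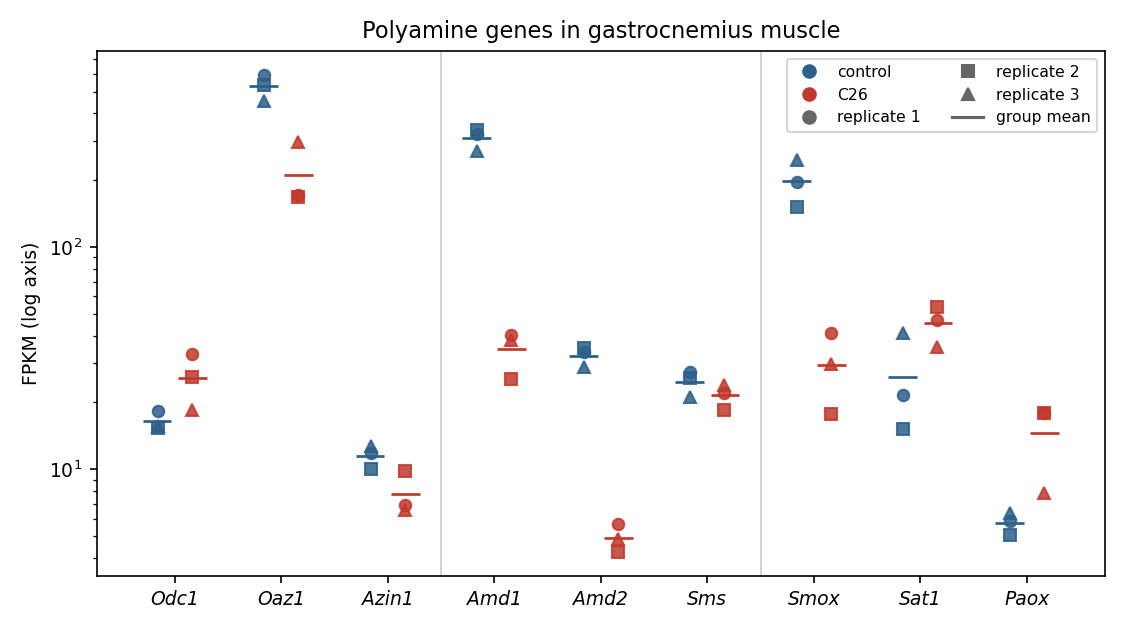
FPKM (log axis) of the 9 polyamine genes in each muscle, with control in blue, C26 in red, symbols for the replicate and a line for the group mean (n = 3). Amd1, Amd2 and Smox sit far lower in all 3 C26 muscles, while the FPKM of Sms and Sat1 overlap between the groups.

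**Figure D2:**
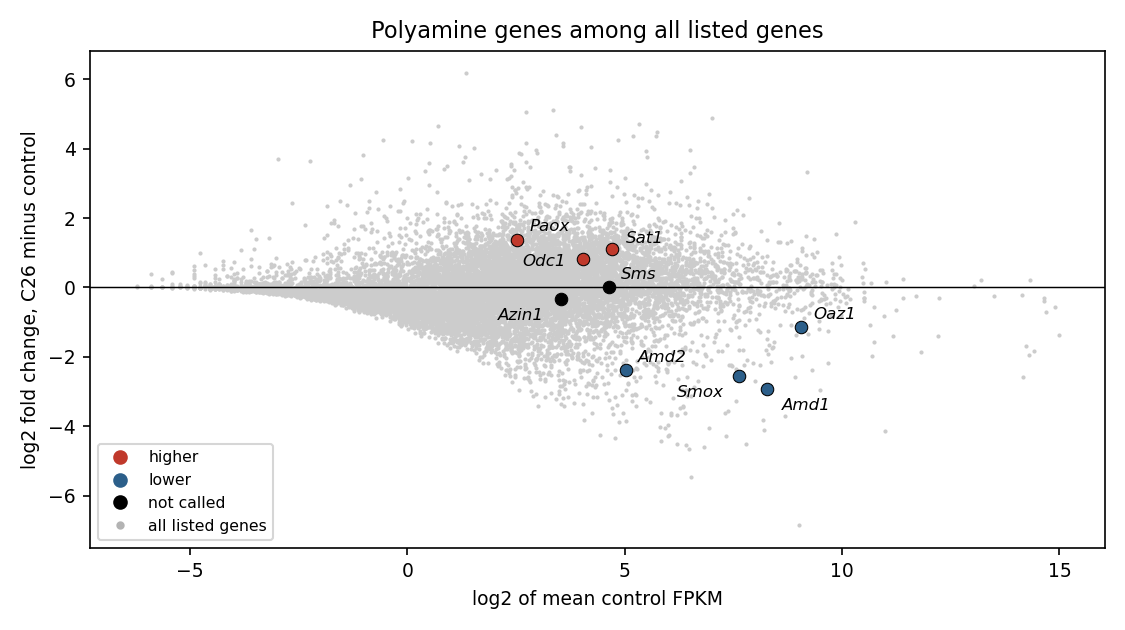
Fitted log2 fold change, C26 minus control, against log2 of the mean control FPKM for all 13363 genes in grey and the 9 polyamine genes as larger points. Amd1, at a log2 fold change of -2.94, and Smox, at -2.55, lie low among the genes of high level, and Sms lies at 0.01.

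Odc1 encodes ornithine decarboxylase, which turns ornithine into putrescine (gene ID 18263, chr12:17544794-17551084 on the plus strand of GRCm38, 12 exons). Its FPKM was 32.9, 25.9 and 18.5 in C26 replicates 1, 2 and 3 and 18.3, 15.4 and 15.6 in control replicates 1, 2 and 3. All C26 muscles were above all controls, but C26 replicate 3 exceeded control replicate 1 by very little. The means were 25.8 ± 7.22 and 16.4 ± 1.63 FPKM (SD, n = 3), and the log2 difference was 0.81 (SE 0.21, adjusted p = 0.0291 in limma with Benjamini-Hochberg adjustment). The call was lost when C26 replicate 1 or 2 or any 1 control was left out, with log2 differences of 0.62 to 0.86 and adjusted p of 0.0635 to 0.0844. Without C26 replicate 3 the difference was 1.06 with an adjusted p of 0.00814 (limma). It was also lost on FPKM as deposited (0.59, adjusted p = 0.0873), under quantile normalization (0.47, adjusted p = 0.106) and with an ordinary linear model in place of limma (adjusted p = 0.0761). Of the 50-base windows in the Odc1 transcript, 42.2% also occur in transcripts of 16 other genes, so that reads of this length could be shared with them.

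Oaz1 encodes antizyme 1, which binds ornithine decarboxylase, takes it to the proteasome and lowers polyamine uptake (gene ID 18245, chr10:80826656-80829290, plus strand). Its FPKM was 172, 167 and 296 with tumor (C26 replicates 1, 2 and 3) and 597, 534 and 454 without. The groups did not overlap, and C26 replicate 3 was the C26 muscle nearest to the controls. The log2 difference was -1.14 (SE 0.29, adjusted p = 0.0276 in limma with Benjamini-Hochberg adjustment). That call was lost without C26 replicate 1, C26 replicate 2, control replicate 1 or control replicate 2, with log2 differences of -1.07 to -0.97 and adjusted p of 0.0763 to 0.0999. It was also lost with an ordinary linear model in place of limma (adjusted p = 0.0879). Without C26 replicate 3 the difference was -1.37 (adjusted p = 0.00408, limma). For Oaz1, 52.2% of the 50-base windows also occur in Oaz1-ps, a pseudogene.

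Azin1 encodes antizyme inhibitor 1, an enzymatically inactive relative of ornithine decarboxylase that draws antizyme away from it (gene ID 54375, chr15:38487427-38519266, minus strand). Its FPKM was 6.90, 9.88 and 6.59 in C26 muscle and 11.9, 10.1 and 12.7 in control muscle. The C26 values all lay below the control values, although C26 replicate 2 came close to control replicate 2. The log2 difference of -0.35 (SE 0.16) did not pass the test (adjusted p = 0.142, limma).

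Relatives of both regulators were measured beside them. Oaz2, a second antizyme, was at 39.6, 42.4 and 84.6 FPKM in C26 muscle and at 152, 143 and 135 FPKM in control muscle, with a log2 difference of -1.23 (adjusted p = 0.0316, limma). Its groups did not overlap, and C26 replicate 3 was again the highest C26 muscle. The call for Oaz2 was lost without C26 replicate 1, C26 replicate 2, control replicate 1 or control replicate 2 (adjusted p of 0.0828 to 0.108), and without C26 replicate 3 the log2 difference was -1.53 (adjusted p = 0.00177, limma). Azin2, a second antizyme inhibitor, was low in both groups, at 0.98, 1.08 and 0.91 FPKM in C26 muscle and 3.37, 2.13 and 3.02 FPKM in controls, and its log2 difference of -0.94 (adjusted p = 0.00738, limma) stayed called whichever muscle was left out.

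Amd1 encodes S-adenosylmethionine decarboxylase, which supplies the aminopropyl donor for spermidine and spermine (gene ID 11702, chr10:40287458-40302186, minus strand of GRCm38, 8 exons). Amd2 is a copy of it in a single exon on the same chromosome (gene ID 100041585, chr10:35708675-35711892, minus strand). Their coding regions are both 1005 bases long and differ at 1 base (99.9% identical). The stretch around that base, coding positions 766 to 826 counted from the A of the start codon, is shown because it is the only place in the coding region where a read can tell the genes apart. The capital marks the base that differs, G796C from Amd1 to Amd2.
Amd1: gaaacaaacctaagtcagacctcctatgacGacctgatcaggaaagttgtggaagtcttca
Amd2: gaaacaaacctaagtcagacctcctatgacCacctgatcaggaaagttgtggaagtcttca

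Of the 3155 windows of 50 bases in the Amd1 transcript, 2715 (86.1%) occur unchanged in the Amd2 transcript. Reads were 50 bases long, so most reads from either gene match both, and how they were divided rests on the estimate made by RSEM, the program that produced the FPKM.

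**Figure D3:**
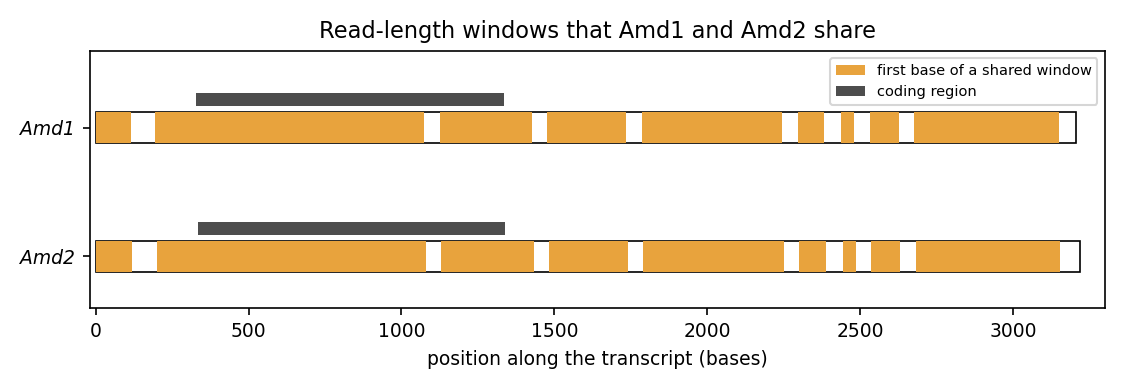
Transcripts of Amd1 and Amd2 by position in bases, with orange where a window of 50 bases starts that occurs in both and grey bars for the coding regions. The shared windows are 86.1% of all windows of Amd1 and 85.7% of those of Amd2.

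Amd1 FPKM was 40.4, 25.5 and 38.4 in C26 replicates 1, 2 and 3 and 321, 335 and 271 in the controls. Every C26 muscle was far below every control. The means were 34.7 ± 8.09 and 309 ± 33.7 FPKM (SD, n = 3), and the log2 difference was -2.94 (SE 0.25, 95% interval -3.54 to -2.34, adjusted p = 0.00187 in limma with Benjamini-Hochberg adjustment). Ordered by log2 difference, Amd1 was number 79 from the lowest of all genes, and by control level it was number 235 from the highest.

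Amd2 FPKM was 5.67, 4.26 and 4.84 in C26 muscle and 33.7, 35.1 and 28.8 in control muscle. The groups were again far apart, with a log2 difference of -2.38 (SE 0.19, adjusted p = 0.00164, limma). The Amd1 to Amd2 ratio was 7.12, 5.98 and 7.93 in C26 muscle and 9.54, 9.54 and 9.42 in control muscle. Summed over the pair, FPKM was 46.0, 29.7 and 43.2 in C26 muscle and 355, 370 and 299 in the controls, so the sum fell whichever way the shared reads were divided between the genes. With a muscle left out, the log2 difference ranged from -3.08 to -2.70 for Amd1 and from -2.51 to -2.26 for Amd2, and no call was lost.

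The sequences upstream of the start sites are shown for Amd1, Amd2 and Smox because these 3 genes were lower together. They are the 250 bases before each annotated start in RefSeq (GRCm38.p6), written on the strand of the gene, and capitals mark TATATAA or GGGCGG on either strand. Windows were found for 8 of the 9 genes. The gene coordinates given here are from GENCODE, where the Smox transcript starts earlier, at 131491764. The last bases shown for Smox therefore lie inside that transcript.
Amd1 (chr10:40302189-40302438, minus strand): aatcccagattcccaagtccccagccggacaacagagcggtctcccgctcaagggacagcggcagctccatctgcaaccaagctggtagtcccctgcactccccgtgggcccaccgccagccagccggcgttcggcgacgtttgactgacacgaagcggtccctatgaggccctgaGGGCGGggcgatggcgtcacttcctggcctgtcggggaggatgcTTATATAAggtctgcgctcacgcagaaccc
Amd2 (chr10:35711892-35712141, minus strand): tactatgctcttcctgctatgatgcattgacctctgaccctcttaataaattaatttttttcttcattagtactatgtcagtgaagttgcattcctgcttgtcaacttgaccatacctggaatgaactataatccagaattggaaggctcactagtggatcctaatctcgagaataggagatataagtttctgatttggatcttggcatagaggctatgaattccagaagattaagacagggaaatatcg
Smox (chr2:131491612-131491861, plus strand): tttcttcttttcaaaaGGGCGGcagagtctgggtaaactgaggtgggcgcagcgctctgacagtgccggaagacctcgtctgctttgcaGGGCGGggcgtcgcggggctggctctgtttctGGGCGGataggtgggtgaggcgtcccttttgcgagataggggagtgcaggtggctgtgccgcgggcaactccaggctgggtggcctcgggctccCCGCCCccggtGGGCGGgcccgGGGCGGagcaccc

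The Amd1 and Amd2 sequences were the same at 64 of 250 positions (25.6%), and their longest shared run was 7 bases, in contrast to the transcripts. GC content was 64.4% for Amd1, 37.6% for Amd2 and 68% for Smox, with a median of 52.4% over all windows. TATATAA was present upstream of Amd1 only among these genes, and in 3.04% of 32851 windows. GGGCGG occurred 6 times in the stretch shown for Smox, the last of these inside the GENCODE transcript. It occurred once upstream of Amd1 and not upstream of Amd2, and was present in 32.7% of windows. It was not particular to the genes that were lower, since 6 of the 8 genes with a window carried it, among them Odc1, Paox, Sat1 and Sms, which were higher or not called. A match of letters is a description and does not show that a factor binds there.

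Sms encodes spermine synthase, which adds the second aminopropyl group (gene ID 20603, chrX:157443855-157492287, minus strand). Its FPKM was 22.0, 18.5 and 24.1 in C26 muscle and 27.3, 25.7 and 21.2 in control muscle. The groups overlapped, and the log2 difference was 0.01 with a 95% interval of -0.47 to 0.50 (adjusted p = 0.962, limma). The interval leaves room for a change of either sign, and the sign turned under other scalings, to -0.19 on FPKM as deposited. Of the 50-base windows of Sms, 28.7% also occur in other genes.

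Smox encodes spermine oxidase, which turns spermine back into spermidine and releases hydrogen peroxide (gene ID 228608, chr2:131491764-131525183, plus strand, 7 exons). Its FPKM was 41.2, 17.8 and 29.8 in C26 replicates 1, 2 and 3 and 196, 151 and 247 in the controls. A wide gap separated the highest C26 muscle from the lowest control. The means were 29.6 ± 11.7 and 198 ± 47.8 FPKM (SD, n = 3), and the log2 difference was -2.55 (SE 0.33, 95% interval -3.34 to -1.77, adjusted p = 0.0046 in limma with Benjamini-Hochberg adjustment). With a muscle left out it ranged from -2.82 to -2.20, with an adjusted p of at most 0.027. None of the 2221 windows of 50 bases in the Smox transcript occurs in a transcript of another gene.

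Sat1 encodes spermidine/spermine N1-acetyltransferase, which marks polyamines for oxidation or export (gene ID 20229, chrX:155213132-155216449, minus strand). Its FPKM was 46.9, 53.7 and 35.7 in C26 muscle and 21.7, 15.2 and 41.0 in control muscle. On FPKM the groups overlapped, since control replicate 3 was above C26 replicate 3, and after scaling they did not. The log2 difference was 1.11 (SE 0.31, adjusted p = 0.0372, limma). It was 1.44 (adjusted p = 0.00958, limma) without control replicate 3, the muscle with lymphocyte transcripts, whose part in the Sat1 level was not tested. The call was lost without C26 replicate 1, C26 replicate 2, control replicate 1 or control replicate 2, with log2 differences of 0.86 to 1.08 and adjusted p of 0.0879 to 0.117, and also on FPKM as deposited (0.88, adjusted p = 0.11). It was lost as well under quantile normalization (0.70, adjusted p = 0.176), without TMM factors (adjusted p = 0.0517, limma) and with an ordinary linear model in place of limma (adjusted p = 0.107).

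Paox encodes the peroxisomal oxidase that acts on acetylated polyamines (gene ID 212503, chr7:140125657-140137224, plus strand). Its FPKM was 18.0, 17.9 and 7.87 in C26 muscle and 5.86, 5.07 and 6.35 in control muscle. The groups did not overlap, and C26 replicate 3 lay close to the controls. The log2 difference was 1.37 (SE 0.29, adjusted p = 0.0156, limma). Without C26 replicate 3 it was 1.79 (adjusted p = 0.00125, limma). Without C26 replicate 1, C26 replicate 2 or control replicate 1 it was 1.19 to 1.37 with adjusted p of 0.0547 to 0.0604, so that it was not called. The call was also lost with an ordinary linear model in place of limma (adjusted p = 0.0636). Of its 50-base windows, 28.9% also occur in transcripts of 115 other genes.

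In control muscle the order of FPKM was Oaz1 (528), Amd1 (309), Smox (198), Amd2 (32.5), Sat1 (25.97), Sms (24.8), Odc1 (16.4), Azin1 (11.5) and Paox (5.76). Only the neighbours Amd2 and Sat1, and Sat1 and Sms, overlapped over the control muscles. In C26 muscle the order was Oaz1 (212), Sat1 (45.5), Amd1 (34.7), Smox (29.6), Odc1 (25.8), Sms (21.5), Paox (14.6), Azin1 (7.79) and Amd2 (4.92). There the run from Sat1 to Sms overlapped at every step, as did Paox and Azin1. Amd1 and Smox stood above Sat1 in every control, and their ranges overlapped in C26 muscle. The 9 genes summed to between 341 and 462 FPKM in C26 muscle and to between 1097 and 1233 FPKM in control muscle.

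Ratios of one gene to another within a muscle do not depend on how muscles are scaled to each other. The Amd1 to Odc1 ratio was 0.982 to 2.08 in C26 muscle and 17.3 to 21.7 in control muscle, a 13.8-fold difference between the geometric means. Smox to Paox, an oxidase of free spermine against one of acetylated polyamines, was 0.992 to 3.78 against 29.8 to 38.9, a 16.5-fold difference. Smox to Sms, the enzymes that consume and make spermine, was 0.962 to 1.87 against 5.88 to 11.6. In these 3 ratios every C26 muscle was below every control. Odc1 to Oaz1, the enzyme against its inhibitor, was 0.0623 to 0.192 in C26 muscle and 0.0288 to 0.0344 in control muscle, higher in every C26 muscle. Each of these 4 gave p = 0.1 in a two-sided exact permutation test (0.15 after Benjamini-Hochberg adjustment over 6 ratios), the smallest p that 3 muscles against 3 allow. Azin1 to Oaz1 (exact permutation p = 0.2) and Sat1 to Odc1 (exact permutation p = 0.6) overlapped between the groups.

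**Figure D4:**
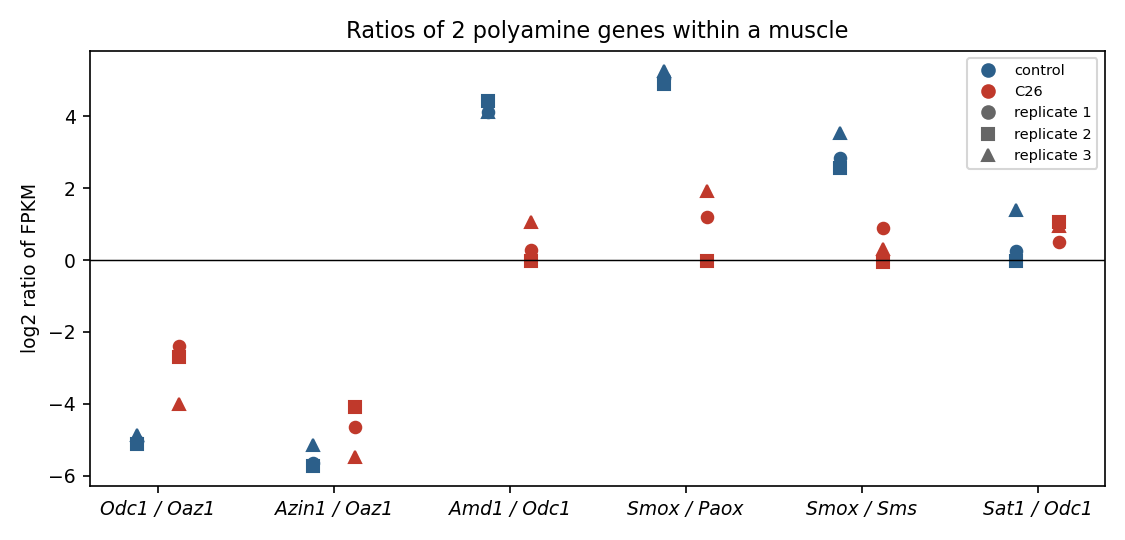
Log2 ratio of FPKM of 6 gene pairs in each muscle, with control in blue, C26 in red and symbols for the replicate. Smox to Paox is 29.8 to 38.9 on the linear scale in the controls and 0.992 to 3.78 in C26 muscle, and the groups overlap for Azin1 to Oaz1 and for Sat1 to Odc1.

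Around these enzymes lie 44 genes for the supply of ornithine and methionine, the use, transport and further breakdown of polyamines, and the control of polyamine genes. Of these, 36 were analysed, 7 were higher, 9 were lower and 20 did not pass the test, with a median log2 difference of 0.05. The shares, 19.4% higher and 25% lower, stand beside 19.4% and 14.5% of all genes. The counts depended on single muscles, and without control replicate 1, for example, 3 were higher and 4 lower, while without C26 replicate 1 there were 4 and 2. The counts over all 13363 genes fell as well. They went from 2589 higher and 1931 lower to 1152 and 726 in the first of these fits and to 1130 and 669 in the second.

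Among these 36 genes the largest rise was in transport. Slc7a2, which carries arginine, ornithine and lysine into cells, was at 134, 107 and 124 FPKM in C26 muscle and 20.6, 22.2 and 13.0 FPKM in control muscle. All C26 muscles were several times above all controls, and the log2 difference was 2.91 (SE 0.27, adjusted p = 0.0021 in limma with Benjamini-Hochberg adjustment). Of 8 transport genes, 2 were higher and 3 lower. Slc3a2, the heavy chain shared by several amino acid transporters, had a log2 difference of 0.85 (adjusted p = 0.0122, limma) and was higher, a call lost without control replicate 1 (0.83, adjusted p = 0.0529). Slc18b1, a vesicular polyamine transporter, was low in both groups and differed by -1.12 (adjusted p = 0.00963, limma). Slc22a3, an organic cation transporter, was at most 0.12 FPKM in C26 muscle and at 3.23, 1.56 and 0.63 FPKM in the controls (log2 difference -1.60, adjusted p = 0.0227, limma), and its call was lost without C26 replicate 1 or 2 or control replicate 1 or 2 (adjusted p of 0.0532 to 0.0716).

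In the supply of ornithine, Oat, the aminotransferase that takes ornithine towards glutamate and proline, was at 181, 196 and 182 FPKM in C26 muscle and 89.3, 101 and 79.8 FPKM in control muscle. The groups did not overlap, and the log2 difference was 1.27 (adjusted p = 0.00541, limma). Gatm, which forms ornithine while making the precursor of creatine, and Aldh18a1, which makes the precursor of proline and ornithine, were low, at up to 3.30 and 1.77 FPKM. Their log2 differences were -0.93 (adjusted p = 0.0231, limma) and -0.77 (adjusted p = 0.0244, limma). The call for Gatm was lost without C26 replicate 1 or 2 (adjusted p of 0.0678 to 0.0853), and that for Aldh18a1 without C26 replicate 1, C26 replicate 2 or control replicate 1 (0.0629 to 0.0934).

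In the methionine cycle and salvage list 9 genes were analysed, 1 was higher, 1 was lower and 7 did not pass the test. Got1, the cytosolic aspartate aminotransferase, which can also carry out the last step of methionine salvage, was at 585, 364 and 271 FPKM in C26 muscle and 75.8, 130 and 62.9 FPKM in control muscle. Every C26 muscle was above every control (log2 difference 2.39, SE 0.40, adjusted p = 0.00824, limma). Mat2a, which makes S-adenosylmethionine, the substrate of the Amd1 enzyme, was at 25.0, 29.4 and 39.6 FPKM against 83.6, 71.0 and 60.6 FPKM. It was lower in every C26 muscle (log2 difference -0.98, adjusted p = 0.026, limma), and the call was lost without C26 replicate 1 or 2 or control replicate 1 or 2 (adjusted p of 0.073 to 0.0929).

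Spermidine is used to make hypusine, a modified lysine on the translation factor encoded by Eif5a. Dhps, the enzyme of the first step, was at 33.8, 42.9 and 18.9 FPKM in C26 muscle and 14.5, 15.4 and 19.5 FPKM in control muscle. On FPKM, C26 replicate 3 lay inside the control range, and after scaling the groups did not overlap. Without that muscle the log2 difference was 1.44 (adjusted p = 0.00347, limma). The call over all muscles (1.07, adjusted p = 0.0285, limma) was lost without C26 replicate 1 or 2 or control replicate 1 or 2 (adjusted p of 0.0659 to 0.1). Dohh, the enzyme of the next step, differed by 0.12, Eif5a by 0.15 and Eif5a2 by -0.33 on the log2 scale, and none of these passed the test (adjusted p = 0.455, 0.455 and 0.12, limma).

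Of 5 other breakdown genes, 1 was called. Aoc3, an amine oxidase known from fat cells and blood vessels, was at 0.98, 0.58 and 0.77 FPKM in C26 muscle and 53.3, 20.3 and 5.57 FPKM in control muscle (log2 difference -3.64, adjusted p = 0.0138, limma). The call was lost without C26 replicate 1 (-3.73, adjusted p = 0.0515). The fat cell markers summed to 4200, 2100 and 548 FPKM in control replicates 1, 2 and 3, and their part in this result was not tested. Among 5 regulators of polyamine genes, Nfe2l2, a stress-response transcription factor, differed by 0.96 (adjusted p = 0.0147, limma) and Max, the partner of Myc, by 0.75 (adjusted p = 0.0189, limma). The first call was lost without C26 replicate 1 or control replicate 1 (adjusted p of 0.0511 to 0.062), and the second without C26 replicate 1 or 2 or control replicate 1 or 2 (0.0573 to 0.0753).

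Slc7a2, Got1, Oat and Azin2 stayed called under every alternative and with any 1 muscle left out. The other calls among the neighbouring genes named depended on the processing, and all but that of Slc18b1 depended on single muscles as well. On FPKM as deposited the calls of Dhps (0.85, adjusted p = 0.0804, limma), Slc3a2 (0.62, adjusted p = 0.0574) and Max (0.53, adjusted p = 0.0919) were lost. Under quantile normalization those of Dhps (0.71, adjusted p = 0.0812, limma), Slc3a2 (0.48, 0.092), Max (0.41, 0.13), Nfe2l2 (0.61, 0.0623), Slc18b1 (-0.74, 0.0611), Slc22a3 (-1.37, 0.0532), Gatm (-0.55, 0.133) and Aldh18a1 (-0.35, 0.159) were lost. With an ordinary linear model in place of limma, Oaz2, Aldh18a1, Gatm, Mat2a, Dhps, Aoc3, Slc22a3 and Nfe2l2 were no longer called, with adjusted p between 0.0506 for Nfe2l2 and 0.0975 for Oaz2.

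**Figure D5:**
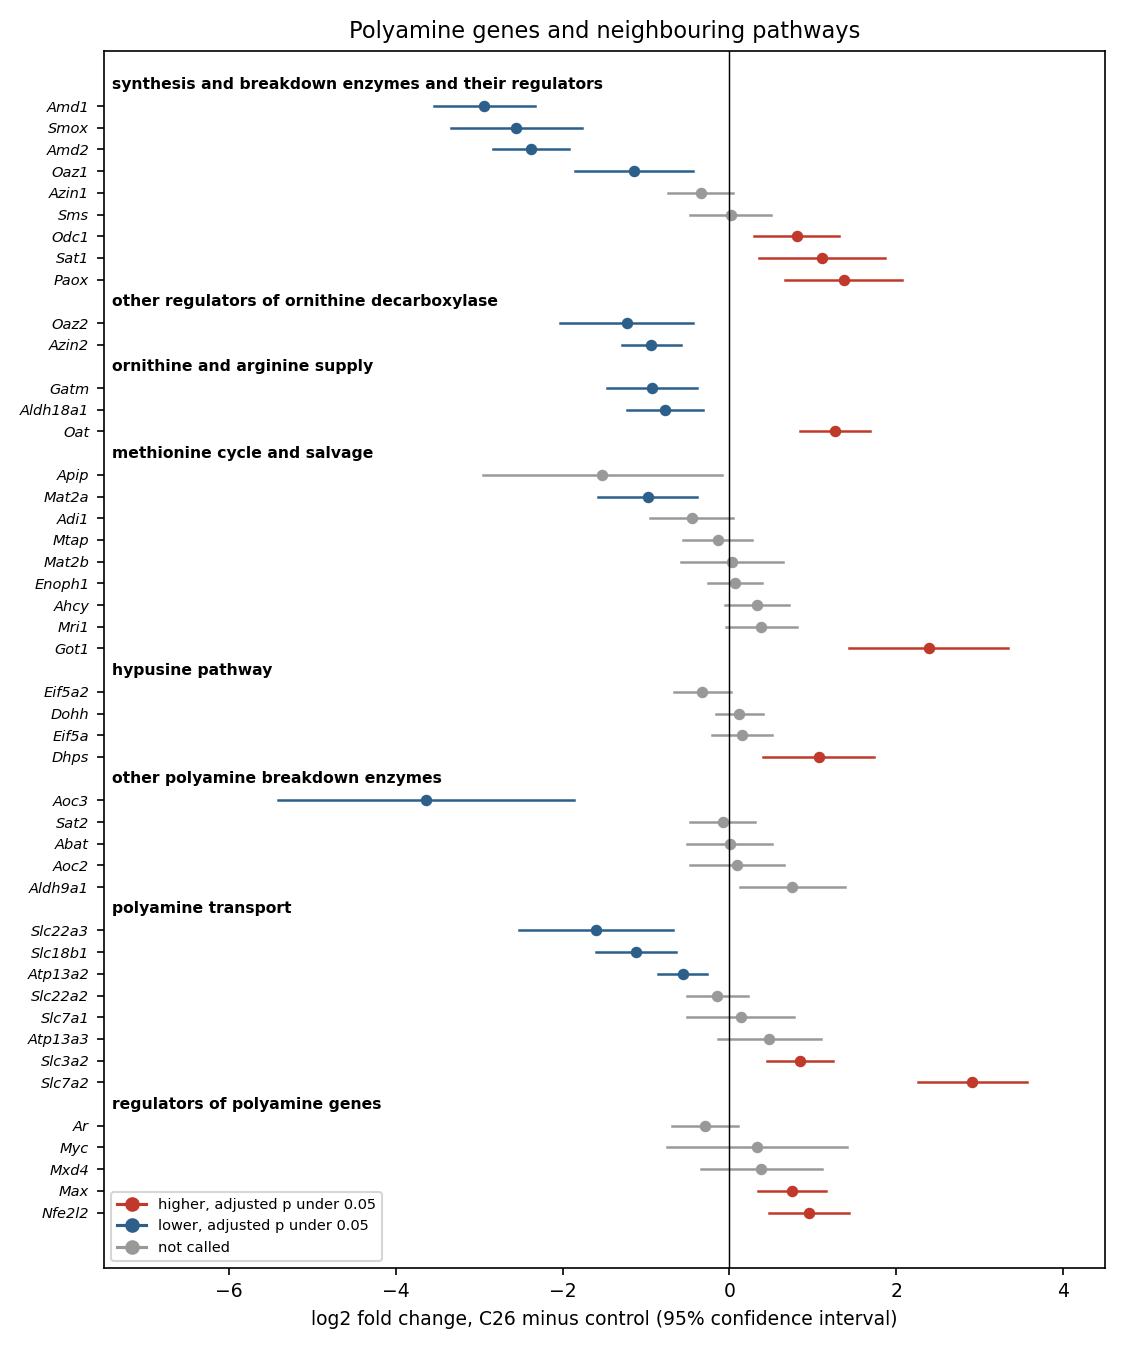
Fitted log2 fold change, C26 minus control, with 95% confidence intervals for the 9 polyamine genes and 36 genes of neighbouring pathways, grouped by role. Red and blue mark genes called higher and lower, and Slc7a2 (2.91), Got1 (2.39) and Aoc3 (-3.64) lie farthest out among the neighbours.

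Markers of some other cells differed between the groups. Of 8 fat cell markers 6 were lower, with summed FPKM of 260 to 395 in C26 muscle and 548 to 4200 in control muscle, and of 6 fibroblast markers 4 were lower, with sums of 159 to 199 against 356 to 424 FPKM. Of 6 endothelial markers 1 was lower (39.7 to 48.2 against 50.2 to 68.7 FPKM). None of 7 macrophage markers was called (29.8 to 280 against 28.7 to 67.1 FPKM). After scaling, Cd68 was the only 1 of the 7 whose groups did not overlap. Its FPKM was 34.85, 247 and 6.46 in C26 replicates 1, 2 and 3 and 4.75, 1.75 and 5.77 in the controls (log2 difference 3.40, adjusted p = 0.0653, limma). All 4 red blood cell markers analysed were higher (615 to 1188 against 329 to 508 FPKM), none of 4 satellite cell markers was called, and 2 of 8 lymphocyte markers, Cd79b and Cd4, were analysed. No marker analysed was at 0 in any muscle. Across the controls, the fat marker sum was lowest in control replicate 3, where Smox was the highest of the controls at 247 FPKM and Amd1 and Amd2 were the lowest, at 271 and 28.8 FPKM. The part of these cells in any of the differences was not tested.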

How the data were processed

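RNA of 6 gastrocnemius muscles (3 C26, 3 Control) was depleted of rRNA and sequenced by the authors on a BGISEQ-500 as single-end reads of 50 bases. The authors aligned reads with Bowtie2 and deposited FPKM from RSEM, to 2 decimals; the submitters' processing notes list HISAT2 2.0.4, Bowtie2 2.2.5 and RSEM 1.2.12. The notes give build mm9 and the study's methods GRCm38, and the labels' extraction text also names an infected human cell line, so coordinates here come from GENCODE M21 and RefSeq, not from the deposited table. Read depth is unknown, and its precision could not be given.

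FPKM was scaled to TPM (sum 1000000), divided by TMM factors (30% and 5% trimmed, unweighted), taken as log2(value + 1) and tested with limma 3.58.1 in R 4.3.3, two-sided, with Benjamini-Hochberg adjustment over 13363 genes. Fold changes are on this scale, which understates those of low genes. The code was tested on simulated data. Ratios were compared by exact permutation (scipy 1.17.1). The labels do not say that replicates are separate animals, so p-values measure the spread between these samples. The genes and lists were chosen with earlier results of these data known. Named were all members analysed, up to 4 called genes of each other list with the largest change, every gene of lists of up to 4, and the marker genes that stood out.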

Additional observations from a re-analysis of the deposited data

How the results depend on the processing

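The calls of Amd1, Amd2 and Smox held under all 8 alternatives and all 6 fits with a muscle left out, and the sum of Amd1 and Amd2 gave the same direction and call. The number of polyamine genes called higher, 3, became 1 on FPKM as deposited, 1 under quantile normalization, 0 with an ordinary linear model per gene, 0 with a fold above 4 required, and 0 to 3 with a muscle left out. The number called lower, 4, was 3 with the ordinary linear model, 5 under quantile normalization and 3 to 4 with a muscle left out. Of the neighbouring pathway genes, 7 were higher, against 4 on FPKM as deposited, 4 under quantile normalization and 3 to 10 with a muscle left out. The 9 lower became 5 with the replicate block, 3 with the ordinary linear model and 2 to 10 with a muscle left out. Over all genes, 2589 were higher, against 1678 on FPKM as deposited, 1525 with the ordinary linear model and 1130 to 3311 with a muscle left out, and 1931 were lower, against 2504 on FPKM as deposited, 1236 with the replicate block, 959 with the ordinary linear model and 669 to 2160 with a muscle left out. The causes were not tested. Sms turned sign, to -0.19 on FPKM as deposited, -0.34 under quantile normalization and between -0.14 and 0.15 with a muscle left out. Azin1 was called only under quantile normalization (adjusted p = 0.0497, limma). The directions of the other 8 genes and of all 6 ratios did not turn under any alternative run. Same-numbered muscles of the 2 groups did not deviate together (correlations of -0.04, -0.08 and -0.11). The labels do not say whether the numbers pair muscles, and so few muscles cannot settle it. In the fit with the replicate block 2 polyamine genes were higher and 3 lower, with Sat1 (adjusted p = 0.0864, limma) and Oaz1 (adjusted p = 0.0766, limma) no longer called, nor Oaz2, Gatm, Mat2a, Dhps and Max among the neighbouring genes named (adjusted p of 0.0565 to 0.0789). Depth is unknown, so what it limits could not be given.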
